A study of Mus musculus with 6 samples.

Results

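The mRNAs Mbp, Mobp, Mog, Mag, Cnp, Mal, Cldn11 and Ermn, which code for proteins of the myelin sheath or of the oligodendrocyte that makes it, were followed in mouse synaptoneurosomes, a preparation of pinched-off synaptic terminals. They were taken by gene name and are 8 of the 21958 protein-coding genes with deposited read counts. Both groups came from FVB mice of 6 to 8 weeks, from hippocampus and the cortex next to it. The labels name no transgene, and each preparation pooled tissue of several mice. In the NMDA polyribosome group (3 libraries), synaptoneurosomes received a pulse of 50 µM NMDA and 10 µM glutamate for 30 s. Then 120 µM APV, an NMDA receptor blocker, was added, with 20 min of incubation. RNA was taken from the light and heavy polyribosome fractions of a sucrose gradient. The methods leave RNA granules out of these fractions, whereas total RNA was not put on a gradient. In the total group (3 libraries), RNA of unstimulated synaptoneurosomes was taken. For this RNA the methods name both an aliquot set aside as total and a part of the supernatant of the spun lysate. According to the methods, unstimulated samples were kept on ice with cycloheximide, a protein synthesis inhibitor, whereas stimulated ones were incubated warm. Stimulation, fraction, temperature, incubation and cycloheximide before lysis changed together. A difference between the groups therefore cannot be assigned to any of them. Libraries with the same number in the labels were taken to come from the same preparation, and values are given for each of the 3 preparations.

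Oligodendrocytes wrap axons with extensions of their membrane, which are compacted into myelin. Mbp mRNA is a classic case of mRNA transport. It is packed into granules, carried along microtubules into the oligodendrocyte processes and translated near the forming sheath. Mobp mRNA is likewise carried into the processes. mRNAs of proteins that span the membrane, such as Mag and Mog, are translated at the endoplasmic reticulum. Polyribosomes are mRNAs loaded with several ribosomes. The share of an mRNA in polyribosomal RNA against its share in total RNA is a usual measure of ribosome loading.

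The values below compare these mRNAs on polyribosomes and in total RNA. Ribosomes begin at the start codon, and its surroundings are shown for 7 of the 8 members. The start codon of Mbp is not shown here. The lines give 10 bases before and 9 bases from the start codon of the principal transcript (Gencode vM21, GRCm38, read along the mRNA), with the start codon in capitals.
Cldn11: tgcggccaccATGgtagcc
Mag: gctaaacaagATGatattc
Cnp: cccactcatcATGaacaca
Mog: aaccataaagATGgcctgt
Mal: gctcgcaggcATGgctccg
Mobp: acccagtgagATGagtcag
Ermn: agtgaacatcATGacagat
All 7 held a purine at the third base before the start codon, as did 84.6% of 20559 principal transcripts of protein-coding genes. A G directly after the start codon stood in 3 of the 7, against 49.6% of the transcripts. Cldn11, the member with the largest difference between the groups, had both, and so did Mog and Mal.

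The genes lie on 7 chromosomes of GRCm38. Cldn11 is on chromosome 3 from 31149920 to 31164324, Mag on chromosome 7 from 30899176 to 30914873, Mog on chromosome 17 from 37010743 to 37023398, and Mobp on chromosome 9 from 120149742 to 120181484. Cnp is on chromosome 11 from 100574904 to 100591729. Mal and Ermn share chromosome 2, from 127633226 to 127656695 and from 58045113 to 58052864, and Mbp is on chromosome 18. Cldn11, Mag and Mal overlap no other annotated gene. Cnp overlaps Dnajc7 on the opposite strand, and Dnajc7 was at 39.4 to 47.0 CPM (a gene's counts relative to the scaled total of the library) in every library, below the lowest Cnp value of 229. Ermn overlaps Galnt5 on the opposite strand, which had at most 0.271 CPM. Mbp, Mobp and Mog each overlap a noncoding gene or pseudogene. The sources used here do not state whether reads were counted by strand.

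Counts on protein-coding genes summed to between 5294482 and 7361580 in the polyribosome libraries and between 1044955 and 3738022 in the total RNA libraries. The shallowest library was total RNA of preparation 3, in which the least abundant members, Ermn and Mog, still had 38 and 82 counts. CPM values here are scaled with the TMM factors of edgeR, and all 8 members passed its expression filter. The oligodendrocyte identity of the RNA was checked against its markers. Of the peripheral myelin genes, Pmp2 had no count in any library and Prx at most 1.62 CPM. Pmp22, which is also made outside peripheral nerve, was at 24.0 to 38.3 CPM. In these bulk libraries, fewer oligodendrocyte fragments and less of an mRNA per fragment cannot be told apart.

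The members covered a wide range of levels. Between genes, levels were compared per kilobase of the longest annotated transcript. On polyribosomes, Mbp had 1052 ± 245 CPM per kb (SD, n = 3), Cldn11 360 ± 14.3, Mag 292 ± 32.96, Mobp 267 ± 104, Mal 184 ± 56.4, Cnp 168 ± 23.5, Mog 91.3 ± 18.6 and Ermn 7.72 ± 0.758. The libraries of Mag and Mobp, of Mobp and Mal, and of Mal and Cnp overlapped, and the other neighbours in this order did not. In total RNA, Mbp had 725 ± 68.3 CPM per kb, Mobp 235 ± 38.6, Cldn11 201 ± 19.8, Mag 171 ± 11.6, Mal 152 ± 57.5, Cnp 124 ± 26.2, Mog 71.5 ± 24.2 and Ermn 8.70 ± 1.26. Here the libraries of Mobp and Cldn11, Mag and Mal, and Mal and Cnp overlapped. Mobp stood above Cldn11 and Mag in total RNA on average and below both on polyribosomes. The order of Mobp and Cldn11 was not the same in every library, since Mobp was the lower of the pair in total RNA of preparation 2 (214 against 221) and the higher on polyribosomes of preparation 1 (385 against 348). Per-kilobase levels depend on the transcript chosen, most of all for Mbp, whose gene makes mRNAs of very different length.

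**Figure D1:**
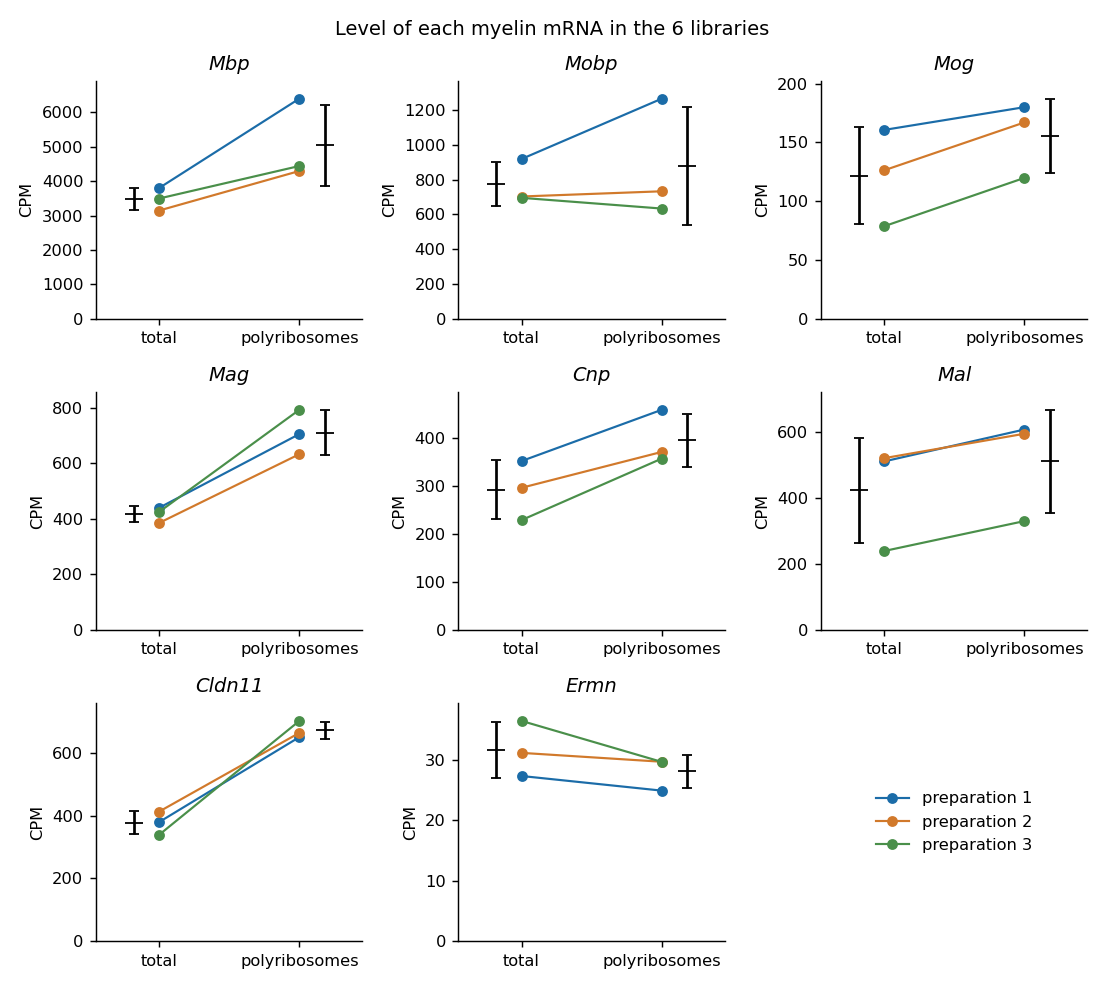
Level of each member (CPM, linear axes from 0) in total RNA and on polyribosomes, with libraries of the same preparation joined by a line and the mean ± SD (n = 3) in black beside the points. The 3 lines of Cldn11 and of Mag rise from separate ranges (339 to 413 against 651 to 702 CPM for Cldn11), those of Mal show preparation 3 low at both ends, and those of Ermn fall.

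The comparison of polyribosomes with total RNA asked which synaptoneurosomal mRNAs are bound by polyribosomes after stimulation. Cldn11 was the only member called higher on polyribosomes in the unpaired test, and no member was called lower. That test called 0.71% of all genes higher and 2.36% lower. In the test that took the preparation into account, Cldn11, Mag, Mbp and Cnp were higher, beside 11.8% of all genes higher and 13.2% lower. Mog, Mal, Mobp and Ermn did not pass in either test. The 4 mRNAs higher in the paired test code for a tight-junction protein, an axon-facing adhesion molecule and proteins of the cytoplasmic side of the sheath. Of these, Mag, Mbp and Cnp passed only in the paired test, and Cnp not when transcript length and GC content were corrected for. Of the mRNAs known for transport, Mbp passed the paired test only and Mobp passed neither.

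Among the membrane proteins, Cldn11 codes for claudin-11, which forms the tight junctions between the layers of the sheath. It had 651, 664 and 702 CPM on polyribosomes of preparations 1 to 3, and 379, 413 and 339 CPM in total RNA. Every polyribosome library was above every total RNA library. The log2 fold change was 0.83 (SE 0.17, adjusted p = 0.00751, from the quasi-likelihood test of edgeR with the Benjamini-Hochberg method over 12255 genes). It was 0.78, 0.69 and 1.05 in the 3 preparations. When any of the 6 libraries was left out, the log2 fold change stayed between 0.76 and 0.91, but the adjusted p rose above the 0.01 threshold each time, to between 0.0110 and 0.0461.

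Mag codes for a sialic acid-binding adhesion molecule on the innermost wrap, facing the axon. Its levels were 706, 633 and 793 CPM on polyribosomes and 440, 385 and 425 CPM in total RNA. The groups did not overlap. The log2 fold change of 0.77 (SE 0.17) narrowly missed the threshold in the unpaired test (adjusted p = 0.0114, edgeR) and passed it with the replicate block, the paired fit (0.76, SE 0.13, adjusted p = 3.7e-07).

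Mog and Mal are membrane proteins too. Mog, on the outer surface of the sheath and a target of antibodies in demyelinating disease, had 180, 167 and 120 CPM on polyribosomes and 161, 126 and 78.6 CPM in total RNA. Mal, a small proteolipid of membrane sorting, had 607, 595 and 330 CPM on polyribosomes and 511, 520 and 239 CPM in total RNA. For both mRNAs the groups overlapped, because the polyribosome value of preparation 3 lay below the total RNA values of other preparations. Within each preparation the polyribosome value was the larger, by 0.16, 0.40 and 0.61 on the log2 scale for Mog and by 0.25, 0.19 and 0.46 for Mal. Neither passed, with adjusted p of 0.347 for Mog and 0.555 for Mal (edgeR) and 0.0182 and 0.0549 with the replicate block. Without total RNA of preparation 3 the log2 fold change of Mal was -0.01 and that of Mog 0.12.

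Among the proteins of the cytoplasmic side, Mbp codes for the basic protein that glues the inner membrane faces together. It had 6401, 4296 and 4441 CPM on polyribosomes and 3799, 3144 and 3495 CPM in total RNA. The groups did not overlap, and the polyribosome library of preparation 1 stood well above the other libraries. The log2 fold change was 0.54 (SE 0.20, adjusted p = 0.0812, edgeR) and 0.52 with the replicate block (SE 0.13, adjusted p = 9.1e-04). Without polyribosomes of preparation 1 it was 0.33 in the unpaired fit.

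Mobp codes for a smaller basic protein of the same compartment. It had 1266, 733 and 634 CPM on polyribosomes and 919, 703 and 695 CPM in total RNA. The groups overlapped, and the preparations went different ways, with 0.46, 0.06 and -0.13 on the log2 scale. The log2 fold change was 0.18 (SE 0.24, adjusted p = 0.636, edgeR), and 0.13 with the replicate block (SE 0.13, adjusted p = 0.432). Without polyribosomes of preparation 1 the unpaired value was -0.18, so that the sign rested on that library.

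Cnp codes for a phosphodiesterase of the cytoplasmic channels of myelin. It had 460, 372 and 358 CPM on polyribosomes and 353, 297 and 229 CPM in total RNA. The groups did not overlap, but only by the small gap between 358 and 353 CPM. The log2 fold change of 0.43 (SE 0.19, adjusted p = 0.133, edgeR) became 0.44 with the replicate block (SE 0.12, adjusted p = 0.00301).

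Ermn codes for ermin, a cytoskeletal protein of mature oligodendrocytes. It was the least abundant member, with 24.9, 29.7 and 29.6 CPM on polyribosomes and 27.3, 31.1 and 36.4 CPM in total RNA. It was the only member whose polyribosome value was the smaller one in all 3 preparations (-0.13, -0.07 and -0.30 on the log2 scale), and the groups overlapped. The difference did not pass (log2 fold change -0.14, SE 0.19, adjusted p = 0.646, edgeR), and it turned to 0.33 in the paired fit with a correction for transcript length and GC content (adjusted p = 0.0725).

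**Figure D2:**
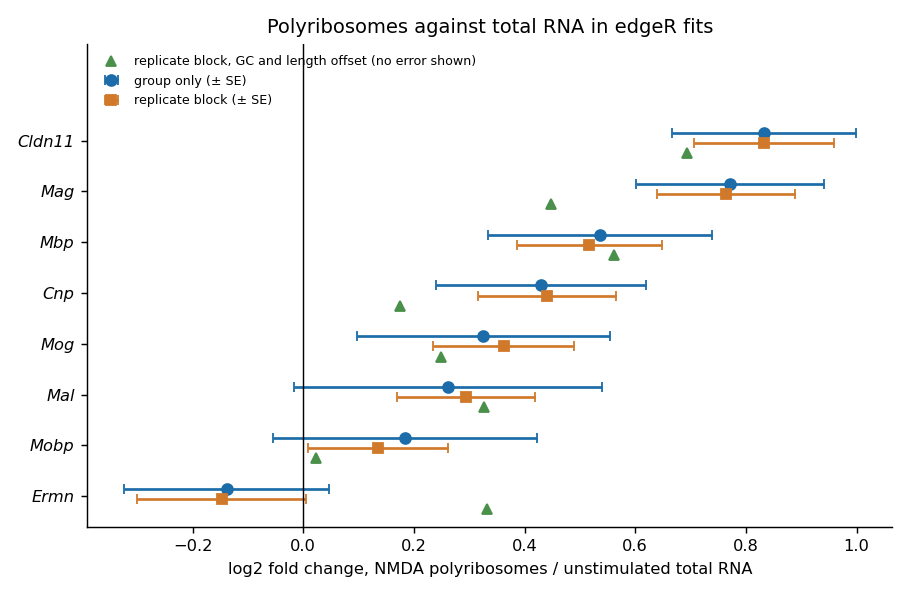
Log2 fold change of each member, polyribosomes over total RNA, in the unpaired edgeR fit (blue, ± SE), with the replicate block (orange, ± SE), and with the block and the correction for length and GC content (green, no error shown). Cldn11 (0.83) and Mag (0.77) lie farthest to the right. With the correction, Cnp drops from 0.44 to 0.17 and Ermn changes sign.

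Over the whole comparison, the unpaired test called 0.71% of 12255 genes higher, against 1 of the 8 members, and 2.36% lower, against 0. With the replicate block 11.8% of the genes were higher, against 4 of the 8, and 13.2% lower, against 0. DESeq2 without the block called 3.31% of 9712 genes higher and 3.83% lower, and 2 members higher (Cldn11 and Mag) and 0 lower. The 3 polyribosome libraries stood above the 3 total RNA libraries for 17.4% of the genes, and for 4 of the 8 members (Cldn11, Mag, Mbp and Cnp). The median log2 fold change of the 8 was 0.38, beside 0.00097 for all genes tested. In the 3 preparations the median was 0.42, 0.36 and 0.54 (mean 0.44 ± 0.09, SD). It was 0.20 without total RNA of preparation 3 and 0.57 without total RNA of preparation 1.

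GC content and transcript length touched some members more than others. The longest transcripts of Mag and Cnp held 57.6% and 55.8% G and C, and that of Ermn held 38.0%. With both properties corrected for in the paired fit, Cldn11 (0.69, adjusted p = 6.8e-07), Mbp (0.56, adjusted p = 5.9e-04) and Mag (0.45, adjusted p = 0.00196) remained higher in edgeR's test. Cnp fell back to 0.17 (adjusted p = 0.282). In the same fit 8.63% of 12212 genes were higher and 7.26% lower, against 3 and 0 of the members.

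Mbp and Mobp, the mRNAs carried into processes, were set against the other 6. Their mean log2 fold change minus that of the other 6 was -0.05 in the unpaired fit. The preparations gave 0.25, -0.12 and -0.46 (mean -0.11 ± 0.35, SD), a spread larger than the difference itself. No difference between the transported mRNAs and the rest was resolved beyond this spread. RNA granules were left out of the polyribosome fractions, whereas total RNA was not put on a gradient. The part this plays in the values of transported mRNAs was not tested. Mbp and Mobp were themselves shifted unequally. The ratio of Mbp to Mobp counts within a library, which needs no scaling between libraries, was 2.34, 2.55 and 2.81 on the log2 scale on polyribosomes and 2.05, 2.16 and 2.33 in total RNA. All 3 polyribosome ratios were above all 3 total RNA ratios, and the difference within preparations was 0.29, 0.39 and 0.48 (mean 0.39 ± 0.10, SD).

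Unequal shifts also appeared between membrane proteins of the sheath, in pairs of genes chosen after their values were seen. The log2 ratio of Cldn11 to Mal was larger on polyribosomes by 0.53, 0.49 and 0.59 in the 3 preparations (mean 0.54 ± 0.05, SD). That of Mag to Mog was larger by 0.52, 0.31 and 0.29 (mean 0.38 ± 0.12). In both ratios preparation 3 lay above the other preparations in either fraction, so that the groups overlapped although every preparation moved the same way.

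**Figure D3:**
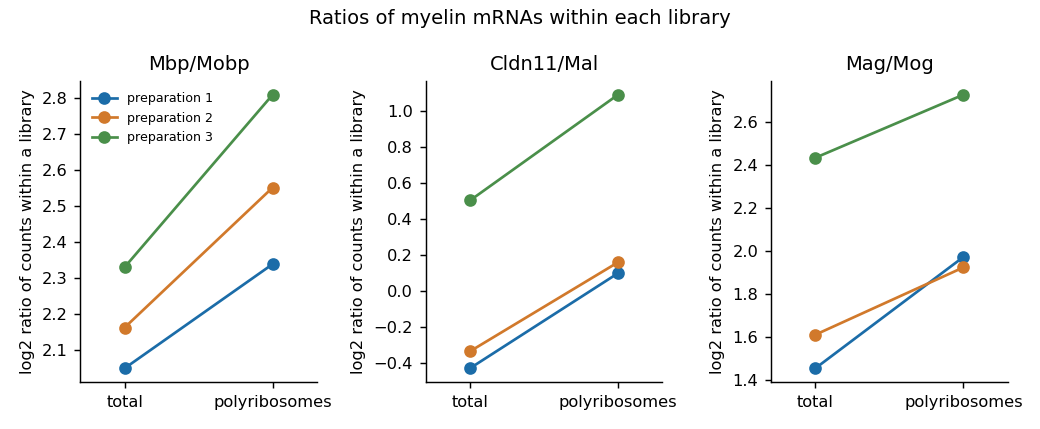
Log2 ratio of the counts of 2 myelin mRNAs within each library, for Mbp over Mobp, Cldn11 over Mal and Mag over Mog, with libraries of a preparation joined (axes do not start at 0). All 9 lines rise from total RNA to polyribosomes, and preparation 3 is the uppermost line in each panel.

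The preparations differed from each other in some members as much as the fractions did. Mal in preparation 3 was at 0.55 times the mean of preparations 1 and 2 on polyribosomes and at 0.46 times in total RNA, a log2 difference of -0.87 and -1.11. For comparison, the central 90% of all genes tested lay between -0.73 and 0.66 on polyribosomes and between -0.94 and 0.88 in total RNA. Mog (-0.53 and -0.87) was low in preparation 3 as well, within those ranges. Mag (0.25 and 0.04) and Ermn (0.12 and 0.32) were not low there, and Mobp was low mainly on polyribosomes (-0.66 and -0.22). Preparation 3 also held the shallowest total RNA library. The part that depth or preparation plays in these member differences was not tested.

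The mean of the 8 members, each centred on its own mean, served to find mRNAs with a like pattern over the 6 libraries, of which 3 belong to each group. Among 6333 other genes whose normalized counts averaged 100 or more, the 5 closest included Gpt2, Ttyh1, Mfsd2a and Wipi1, with Pearson's r from 0.986 to 0.979. None of these 4 is on the oligodendrocyte lists. Of the myelin genes outside the 8, Fa2h (r = 0.955, rank 22) and Opalin (r = 0.951, rank 26) came closest. Of the members themselves, Cnp followed the mean most closely (r = 0.981), and Ermn ran against it (r = -0.895). Each member is part of this mean, so its r cannot be compared with that of other genes.

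Other genes of myelin and mature oligodendrocytes were taken from a list of 42, of which 40 were tested (Ninj2 and Klk6 were too low). Which cells the RNA of these genes came from in the bulk libraries was not tested. In the unpaired test 3 were higher, Gamt and Gsn among them, and 0 were lower. At an unadjusted p under 0.05, 19 were on the higher side (15.4% of all genes) and 0 on the lower side (17.1% of all genes). With the replicate block 18 were higher and 0 lower, beside 11.8% and 13.2% of all genes, and 15 and 0 in the paired fit corrected for length and GC content, beside 8.63% and 7.26%. DESeq2 without the block called 6 higher and 0 lower, beside 3.31% and 3.83%. The median log2 fold change of the 40 was 0.46 in the unpaired fit, where 31 had a positive value, and 0.29 in the corrected paired fit.

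Gamt, an enzyme of creatine synthesis, had 17.9, 16.0 and 21.8 CPM on polyribosomes and 7.70, 6.36 and 10.5 CPM in total RNA (1.26, SE 0.24, adjusted p = 0.00569, edgeR). Gsn, the actin-severing protein gelsolin, had 435, 434 and 391 CPM on polyribosomes and 236, 264 and 212 CPM in total RNA (0.82, SE 0.17, adjusted p = 0.00808, edgeR). The groups did not overlap for either. Leaving out single libraries ended the call of Gamt in 4 of 6 fits and of Gsn in 5, and neither passed in the unpaired fit corrected for length and GC content. In the corrected paired fit Gamt was at 0.68 (adjusted p = 0.0110) and Gsn at 0.55 (adjusted p = 8.7e-05, edgeR). The connexins Gjb1 (0.48, adjusted p = 0.161) and Gjc3 (-0.10, adjusted p = 0.732, edgeR), which form gap junctions of oligodendrocytes, did not pass.

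Values are given for 4 enzymes of myelin lipids, picked after their values were seen. Fa2h, which makes the hydroxylated fatty acids of myelin lipids, had 108, 107 and 79.5 CPM on polyribosomes and 66.8, 68.0 and 47.0 CPM in total RNA, without overlap. Its log2 fold change was 0.67 (SE 0.19), with an adjusted p of 0.0304 in edgeR's unpaired fit and of 8.0e-06 with the replicate block. Ugt8a, which makes galactosylceramide, was at 0.11 (adjusted p = 0.805), Gal3st1, which adds its sulfate, at -0.10 (adjusted p = 0.847), and Aspa, which supplies acetate, at -0.40 (adjusted p = 0.469, edgeR). In the corrected paired fit Ugt8a was at 0.62 (adjusted p = 5.1e-06) and Fa2h at 0.46 (adjusted p = 0.00154), and both passed. There Gal3st1 was at -0.45 (adjusted p = 0.0906) and Aspa at -0.26 (adjusted p = 0.495, edgeR), and neither passed.

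Of 10 transcription factors of the lineage, 0 passed the unpaired test in either direction. At an unadjusted p under 0.05 in that test, 4 were on the higher side (15.4% of all genes) and 1 on the lower side (17.1% of all genes). The median log2 fold change was 0.44, and 0.09 in the paired fit corrected for length and GC content. With the replicate block, Olig1 (0.71, adjusted p = 2.7e-06) and Olig2 (0.76, adjusted p = 2.8e-05), which set the oligodendrocyte fate, were higher and St18 (-0.88, adjusted p = 0.00193) was lower. Of the 10, 2 were thus called higher and 1 lower, beside 11.8% and 13.2% of all genes. All 3 calls ended in the paired fit corrected for length and GC content, where Olig1 was at 0.25 (adjusted p = 0.103), Olig2 at 0.42 (adjusted p = 0.0179) and St18 at -0.49 (adjusted p = 0.116), while Zfp536 was lower (-0.52, adjusted p = 0.00186). That fit called 0 of the 10 higher and 1 lower, beside 8.63% and 7.26% of all genes. Nkx2-2, the most positive, had 4.53 to 5.28 CPM on polyribosomes and 0.959 to 4.02 CPM in total RNA (1.01, SE 0.38, adjusted p = 0.0854, edgeR). St18 had 4.87 to 7.08 CPM on polyribosomes and 10.0 to 13.4 CPM in total RNA.

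Markers of oligodendrocyte precursors, the dividing cells that have not yet made myelin, were closer to 0 in the unpaired fit, with a median of 0.08. In the paired fit corrected for length and GC content their median was 0.24, beside 0.33 for the members and 0.29 for the other myelin genes. Of 10, 0 passed the unpaired test. At an unadjusted p under 0.05 in that test, 2 were on the higher side (15.4% of all genes) and 0 on the lower side (17.1% of all genes). With the replicate block, Cspg4 (0.71, adjusted p = 2.6e-06), a surface proteoglycan, and C1ql1 (0.89, adjusted p = 4.2e-04) were higher. These were 2 of the 10, with 0 lower, beside 11.8% and 13.2% of all genes. In the corrected paired fit C1ql1 was at 0.18 (adjusted p = 0.582) and no longer passed, while Cspg4 (0.55, adjusted p = 7.2e-05) and Pdgfra (0.51, adjusted p = 2.2e-04), a growth factor receptor, did. That fit called 2 of the 10 higher and 0 lower, beside 8.63% and 7.26% of all genes. Lhfpl3, the most negative, was at -0.20 (adjusted p = 0.590, edgeR).

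Factors known to bind, carry or regulate Mbp mRNA were listed as 9 genes, and 0 passed the unpaired test. At an unadjusted p under 0.05 in that test, 1 was higher (15.4% of all genes) and 1 lower (17.1% of all genes). With the replicate block 1 was higher and 0 lower, beside 11.8% and 13.2% of all genes. The paired fit corrected for length and GC content called 2 higher and 0 lower, beside 8.63% and 7.26%. The median of the 9 was 0.10 in the unpaired fit and 0.27 in the corrected paired fit. Pcbp1, which codes for the RNA-binding protein hnRNP E1, was at 0.58 (SE 0.25, adjusted p = 0.123, edgeR), and passed with the replicate block (adjusted p = 5.1e-04) but not in the corrected paired fit (0.20, adjusted p = 0.259). There Hnrnpk (0.54, adjusted p = 8.0e-05) and Qk (0.41, adjusted p = 0.00684), which code for RNA-binding proteins, were higher. Kif1b, a kinesin motor, had 1107 to 1251 CPM on polyribosomes and 1524 to 1589 CPM in total RNA, without overlap, and its log2 fold change of -0.37 did not pass (SE 0.17, adjusted p = 0.138, edgeR). Hnrnpa2b1, the protein known to bind the transport signal of Mbp mRNA, was at 0.18 (adjusted p = 0.541). These genes are expressed in neurons and other glia too.

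Markers of other cells were measured beside the members. All 8 astrocyte markers had a positive log2 fold change (median 0.57), with a summed level of 44441 to 48726 CPM on polyribosomes and 34211 to 40057 CPM in total RNA. They ran from Aqp4, a water channel (0.10), to Aldoc, a glycolytic enzyme (1.06, adjusted p = 0.0142, edgeR). All 7 microglia markers were positive (median 0.36, from P2ry12 at 0.02 to C1qa at 0.72), with a summed level of 748 to 889 CPM on polyribosomes and 517 to 671 CPM in total RNA. The 5 endothelial markers were positive as well (median 0.33, from Pecam1 at 0.22 to Cldn5 at 0.92), and their summed levels overlapped (399 to 678 against 388 to 403 CPM). Of the 8 neuron and synapse markers, 5 were positive (median 0.17, from Snap25 at -0.16 to Grin1 at 0.52), with summed levels of 11176 to 14611 and 9603 to 13119 CPM. None of these 28 markers was at 0 in a group, and none passed the unpaired test, while 13 passed with the replicate block, all higher, beside 11.8% of all genes. The corrected paired fit also called 13 higher, beside 8.63% of all genes, but not the same genes. C1qa (0.15, adjusted p = 0.396), Cldn5 (0.34, adjusted p = 0.0383) and Grin1 (0.24, adjusted p = 0.149) no longer passed there, and Aqp4 (0.50, adjusted p = 4.7e-04) and P2ry12 (0.41, adjusted p = 0.00599) did. The summed level of the 8 members was 7407 to 10295 CPM on polyribosomes and 5536 to 6588 CPM in total RNA. The part of these other cells in the differences of the members and of the other myelin genes was not tested.

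**Figure D4:**
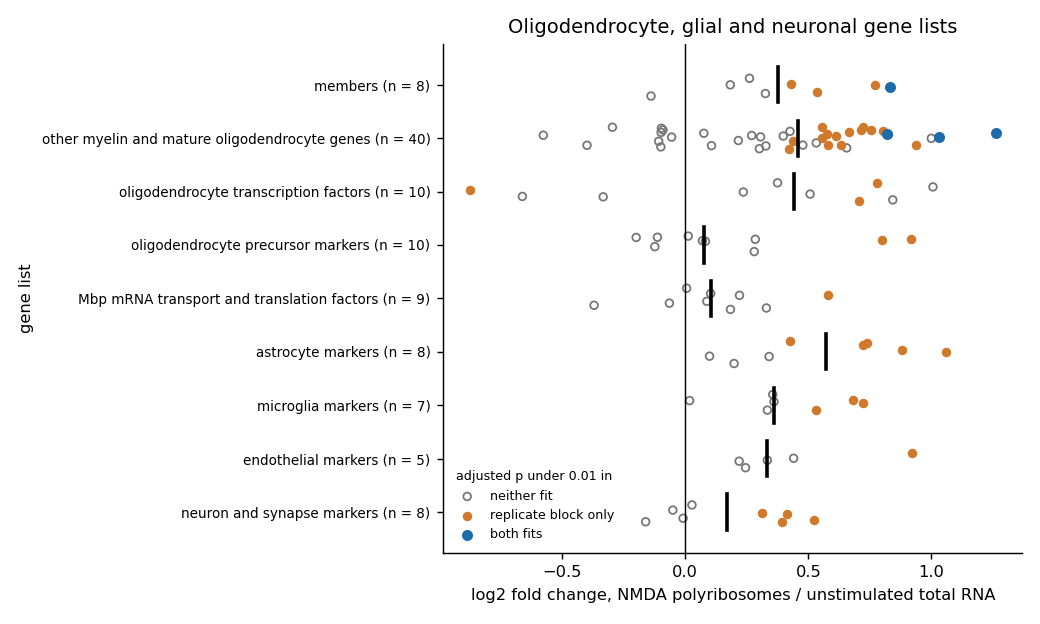
Log2 fold change of each tested gene (points) in the oligodendrocyte lists and in the lists of other cells, with the list median as a black bar. Blue points passed an adjusted p under 0.01 in both edgeR fits, orange points only with the replicate block. In the unpaired fit shown, the members (median 0.38) and the other myelin genes (0.46) lie to the right of the precursor markers (0.08), beside the astrocyte markers (0.57). In the paired fit corrected for length and GC content, not drawn here, these medians were 0.33, 0.29, 0.24 and 0.59.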

How the data were processed

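RNA of 3 NMDA polyribosome and 3 unstimulated total samples was depleted of ribosomal RNA and sequenced. The methods describe strand-specific libraries, whereas the labels name a TruSeq RNA kit without mention of strand. The authors mapped reads with STAR 2.5.2b (per the labels) to GRCm38 (mm10), used the basic set of Gencode vM6 for counting, and deposited unnormalized whole-number counts per protein-coding gene. The columns of the authors' own DESeq2 comparison were not used. Counts were fitted here with edgeR 4.0.16 in R 4.3.3 (TMM, filterByExpr, quasi-likelihood test, group only), with Benjamini-Hochberg adjustment over 12255 genes and a threshold of 0.01. CPM values use library sizes times TMM factors, and SDs are over 3 libraries.

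The methods divide a preparation into aliquots for total RNA and for stimulation, without matching libraries by number. Same-numbered libraries share that number and a column prefix in the labels. Across genes they deviated together from their group means (r = 0.37, 0.26 and 0.38). The number was therefore used as a block. Replicates differed by more than sampling noise (chi-square per degree of freedom 3.58 to 20.9). The unpaired p-values rest on the spread of libraries within a group, and those with the block on the spread of differences between preparations. In both fits edgeR drew the spread of each gene toward that of other genes. The p-values therefore do not measure a gene's own spread alone. With the block, the SE was 0.12 for Ckap5 and 0.13 for Mobp, whose differences within preparations had SDs of 0.026 and 0.30. GC content and length came from the longest Gencode vM21 transcript (99.6% of genes tested). As alternatives, DESeq2 1.42.0, total-count scaling, no expression filter, the block, a GC and length offset, a threshold of 0.05, and fits without single libraries or preparation 3 were run. The procedure was tested on simulated counts.

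The members, lists and tests were chosen with earlier results of these data known. Named genes are the members, those of each list past the threshold or else its extremes, and the 5 most alike; Fa2h, Ugt8a, Gal3st1, Aspa, Gjb1, Gjc3, Opalin, Hnrnpa2b1, Zfp536, Pdgfra, Hnrnpk, Qk and the genes that passed only with the block were added after their values were seen. Some genes that this rule names are not reported here.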

Additional observations from a re-analysis of the deposited data

How the results depend on the processing

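The number of the 8 members called higher depended on the model. It was 1 in the unpaired edgeR fit, 2 at an adjusted p under 0.05, 2 in DESeq2 and 2 with no filter on low counts (Cldn11 and Mag each time), 0 with total counts only and 0 with an offset for length and GC content alone, and 0 in each fit without 1 library. With the replicate block it was 4, and 3 when the offset was added. Without both libraries of preparation 3, chosen after seeing the data, it was 2, and 4 with the block as well. The count for the 42 other myelin genes was 3, and 12 at an adjusted p under 0.05, 6 in DESeq2, 6 with no filter, 1 with total counts only, 0 with the offset alone and 0 to 2 without 1 library. It was 18 with the replicate block and 15 with block and offset. Without preparation 3 it was 8, and 17 with the block. The calls over all genes moved as well. Of all genes, 87 were higher in the unpaired fit, 321 in DESeq2, 476 with no filter, 42 with total counts only, 31 with the offset alone, 0 to 61 without 1 library, 453 without preparation 3, 1441 with the block and 1054 with block and offset. No member and no gene of that list was called lower in any of these fits. Fits without 1 library have fewer samples, and in the other cases the cause was not tested. The median of the members, 0.38, was 0.27 with total counts only, where the median over all genes was -0.11, and ranged from 0.20 to 0.57 without 1 library. Mbp and Mobp minus the other 6 ranged from -0.29 to 0.07 without 1 library and was 0.10 without preparation 3.

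Of the single genes, Ermn went from -0.14 to 0.38 with the offset and to 0.33 with block and offset, and Lhfpl3 from -0.20 to 0.12 and 0.15. With total counts only, Aqp4 was -0.0061 and P2ry12 -0.086. Without preparation 3, P2ry12 was -0.048, or -0.050 with the block, and Pecam1 -0.029, or -0.020 with the block. Without 1 library, Mobp ranged from -0.18 to 0.37, Mal from -0.014 to 0.50, Lhfpl3 from -0.35 to 0.027, P2ry12 from -0.17 to 0.20 and Snap25 from -0.34 to 0.0098. Of 464 values of named genes under an alternative, 382 kept their direction and side of the threshold. The 1044955 counts of the shallowest library limit genes of a few CPM such as Nkx2-2.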
